A study of Mus musculus with 8 samples.

Results

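The genes described here encode the machinery that docks, primes, fuses and retrieves synaptic vesicles. They were chosen by name as a fixed set of synaptotagmins, synapsins, SNARE proteins and their partners, active zone scaffolds, vesicle membrane proteins, Rab3 GTPases and endocytic proteins. The set held 48 genes of 40659 in the count table, and all 48 passed the filter on low counts. They were measured by polyA-RNA sequencing of whole hippocampus in 8 male C57BL/6JRj mice. 4 mice received the recombinant adeno-associated virus hp708 and 4 received hpCTL, by stereotactic injection into dorsal and ventral hippocampus at postnatal week 7 to 8. hp708 expresses EGFP (a green fluorescent protein) under the human synapsin promoter, which is active in neurons, with a hairpin in the 3'UTR (the 3' untranslated region) of EGFP that gives rise to miR-708-5p, and hpCTL is the control virus of that experiment. Hippocampi were dissected 4 weeks after surgery, and the labels give the tissue as 12 to 13 weeks old. The mice were wild-type, and the virus reaches neurons of an otherwise intact tissue, so transcripts of infected and uninfected cells were measured together.

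Release of transmitter begins when an action potential opens calcium channels beside vesicles already held at the active zone. The SNARE proteins Vamp2 on the vesicle and Snap25 and Stx1a on the plasma membrane zip together and pull the membranes into contact, complexins hold and assist that complex, and synaptotagmins sense the calcium that sets off fusion. Munc13 proteins (the Unc13 genes) and RIM proteins make docked vesicles ready to fuse, Bassoon and Piccolo order the release site, Nsf takes spent SNARE complexes apart, and dynamin and endophilin recover the membrane. In the hippocampus these genes are expressed by most neurons, although paralogs differ between cell types. The question of the comparison is how their transcript levels differed between hp708 and hpCTL, including those whose 3'UTR could pair with the seed of miR-708-5p.

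The seed of a miRNA, its bases 2 to 8, is the stretch that pairs with target transcripts. The mature sequence of miR-708-5p from RefSeq (GRCm38.p6, chr7:96249450-96249472, plus strand) is shown with these bases in capitals, because the sites below match all of them or bases 2 to 7.
mmu-miR-708-5p: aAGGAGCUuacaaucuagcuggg

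A search of the longest annotated 3'UTR of each gene for matches to bases 2 to 8 (7mer-m8, AGCTCCT), to bases 2 to 7 followed by an A (7mer-A1, GCTCCTA) or both (8mer, AGCTCCTA) found 30 sites in 25 of the 48 release genes (52.1%). Among all tested genes with a 3'UTR, 3927 of 14808 (26.5%) held such a match. The 3'UTRs of the release genes were longer, with a median of 2986.5 bases against 1865, and the density of matches was 0.185 per kilobase against 0.154. Within the interquartile range of the release genes' own 3'UTR lengths (1776 to 4614 bases), 12 of 24 release genes (50%) and 2184 of 6280 tested genes (34.8%) held a match. These counts describe letters in an annotation, and a match is not evidence of binding.

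The sites printed next are those of the genes on which the results turn, each a window of 23 bases on the transcript strand of GRCm39 with the letters of the searched match in capitals, which for the 7mer-A1 and the 8mer include a final A that lies opposite base 1 and is not part of the seed. They belong to the release genes with the lowest p-values that have a match (Unc13a, Cplx2, Syt7, Erc2 and Sh3gl2), to Cplx1, whose groups did not overlap, to Snap25, the gene with the most counts, and to Amph, which held the 8mer.
Unc13a, chr8:72079332-72079354, minus strand: tggctggagttcttgAGCTCCTt
Unc13a, chr8:72077705-72077727, minus strand: accagactctcccacAGCTCCTt
Cplx2, chr13:54530923-54530945, plus strand: ttgggaaggtcatcagGCTCCTA
Syt7, chr19:10429892-10429914, plus strand: atagctcagaggtacAGCTCCTg
Erc2, chr14:28199578-28199600, plus strand: tgccaattttgacacAGCTCCTg
Sh3gl2, chr4:85555082-85555104, plus strand: tatcgagaaagagagAGCTCCTc
Cplx1, chr5:108667045-108667067, minus strand: tggccggtaaatgcaAGCTCCTg
Snap25, chr2:136623095-136623117, plus strand: gttgttggacaagagAGCTCCTt
Amph, chr13:19334919-19334941, plus strand: gaacctatttataaaAGCTCCTA
Amph, chr13:19334405-19334427, plus strand: cttgcccgaattgtgAGCTCCTg

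All 10 windows lie in annotated 3'UTR exons, but those of Erc2 and Sh3gl2 fall outside the 3'UTR of the canonical transcript. So do the matches of Dnm1, Nsf and Vamp2, which are not printed. In Snap25 the match in capitals starts 110 bases after the stop codon, in Unc13a the matches start 2727 and 4354 bases after it, and in Cplx2 3416. Amph, Syn3, Syngr1, Syt2 and Unc13a held a pair of matches each. The 7mer-m8 site of Amph had the most letters able to pair when the window was laid against the whole miRNA, 14 of 23.

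The libraries held 22606824 to 28462428 counts, and the release genes took 1.71% to 2.04% of them. The neuronal markers Rbfox3 and Map2 were present in every library, between 207 and 262 CPM and between 823 and 1150 CPM, while 5 of the 8 neuronal markers had log2 fold changes below 0 (Tubb3 -0.16 and Elavl4 -0.22, both with an unadjusted p below 0.05), CPM being counts per 1000000 of the scaled library size. The groups have limits that the labels do not show. The precursor gene Mir708 had 0 counts in every library, so the overexpression could not be checked here, and a qPCR data sheet of the same study names the animal of hp708 replicate 1 among its hpCTL mice. It was kept in hp708, where its label puts it. The count of release genes, the split by direction and several of the fold changes that turn on it are also given without it. Transcripts of different length behaved differently in 2 libraries, which bears on these genes because they are long. Across the 48 genes, Spearman's rho between the length of the canonical transcript and the log2 deviation from the gene's mean was -0.81 in hpCTL 1 and -0.61 in hp708 2, against 0.01 to 0.44 in the other libraries. Over 17162 tested genes it was -0.36 and -0.20 in the same libraries and 0.08 to 0.23 in the rest. The points of one library share its RNA and its depth, so these values describe the libraries.

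**Figure D1:**
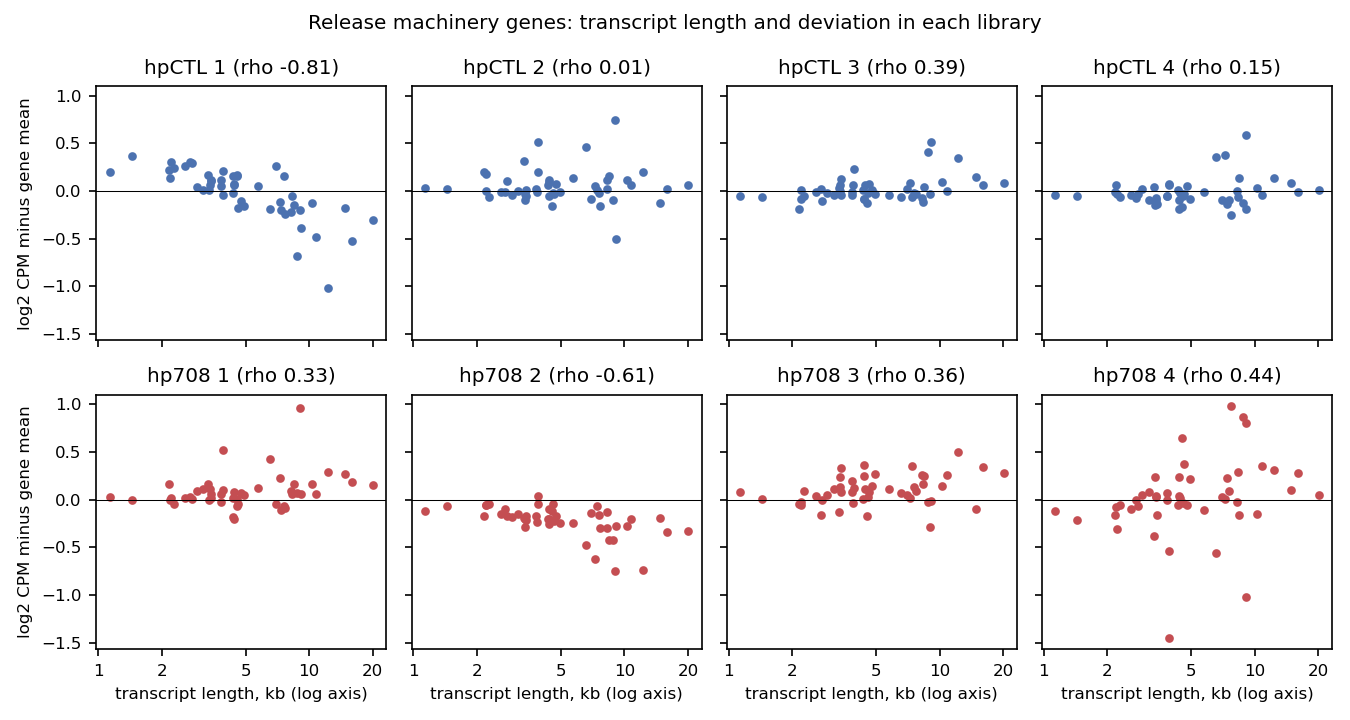
Each panel is 1 library and each point 1 of the 48 release genes, with the length of its canonical transcript in kilobases on a log axis against its log2 CPM minus the gene's mean over the 8 libraries. Long transcripts lie below 0 and short ones above it in hpCTL 1 (rho -0.81), and in hp708 2 nearly all points lie below 0, the long ones most (rho -0.61).

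In hpCTL 1 the release genes at or above the median length of 4475 bases had a median deviation of -0.18, and the shorter ones a median of 0.13. This library was the highest of the 8 for 16 release genes and the lowest for 6. In hp708 2 the median deviation over all release genes was -0.194, and it was the lowest library for 25 of them. In the same library Mbp, Mog, Mag and Mobp, markers of oligodendrocytes, were at 3860, 96.8, 270 and 1210 CPM, each the highest of the 8, with the next highest libraries at 2760, 69.3, 234 and 924. Their part in the low values of the release genes was not tested. In bulk tissue, fewer neurons and less transcript per neuron cannot be told apart. hp708 3 was the highest library for 16 release genes.

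**Figure D2:**
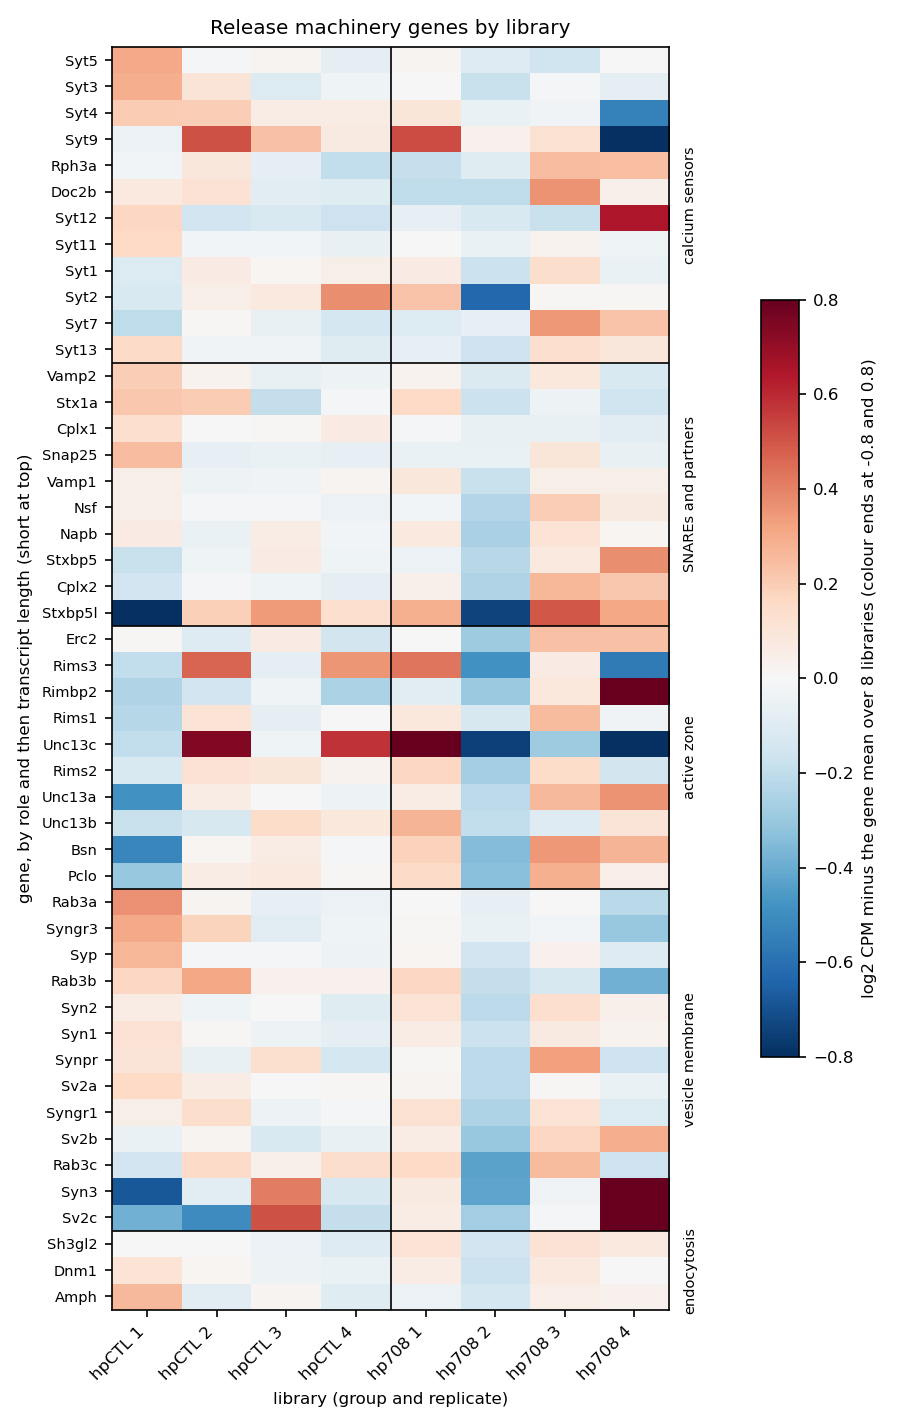
Colour gives each release gene's log2 CPM minus its mean over the 8 libraries (red higher, blue lower, ending at -0.8 and 0.8), with genes in rows by role and from short to long transcripts within a role. hpCTL 1 changes from red to blue with length within the roles, hp708 2 is blue almost throughout, and hp708 4 departs most for single genes such as Rimbp2, Syt9 and Unc13c.

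Vamp2 and Snap25 had the most abundant transcripts per length. Vamp2 stood at 910 CPM per kilobase of canonical transcript (833 to 1040 over the 8 mice) and Snap25 at 904 (859 to 1070), and their ranges overlapped. Syp, which encodes the vesicle membrane protein synaptophysin, followed at 491, below Snap25 in every comparison of the mice, and then Dnm1 at 339 and Rab3a at 320. Syt1 (275) and Nsf (274) could not be separated from each other, nor from Cplx2 at 263. Syn2 stood at 221 (191 to 242) and Syn1 at 167 (148 to 181), with ranges that did not overlap, whereas Syn3 was the least abundant of the 48 at 0.787. Of the 47 steps between neighbours in this order, 39 joined genes whose ranges over the mice overlapped. 13 genes were at or above 100 CPM per kilobase and 10 below 10. Across all tested genes, the median percentile of the release genes in mean log2 CPM was 95.6.

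**Figure D3:**
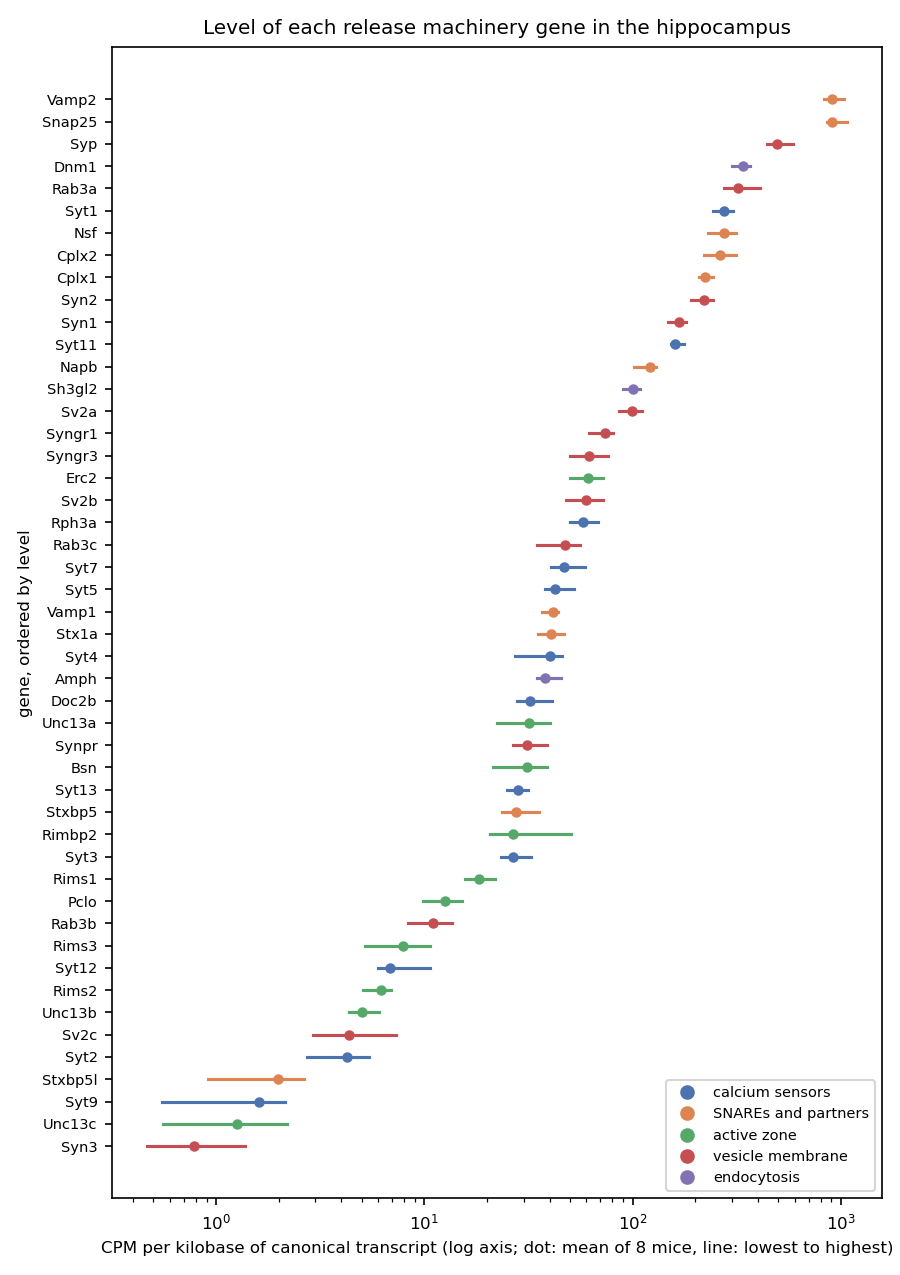
The level of each release gene is shown as CPM per kilobase of canonical transcript on a log axis, with the dot at the mean of the 8 mice, the line from the lowest to the highest mouse and the colour giving the role. Vamp2 and Snap25 share the top at 910 and 904, most active zone genes lie in the lower part of the order, and Syn3, Unc13c, Syt9 and Stxbp5l are at the bottom.

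None of the 48 release genes passed an adjusted p of 0.05 between hp708 and hpCTL in the quasi-likelihood test of edgeR, fitted with 3 surrogate variables. Over all genes 0.0058% passed. The lowest FDR (the p-value adjusted by Benjamini and Hochberg's method over the 17252 tested genes) was 0.297, that of Bsn. An unadjusted p below 0.05 was found for 6 release genes, all of them higher in hp708, while 7.7% of all tested genes had such a p, 2.82% being higher and 4.87% lower. The 6 were Bsn, Unc13a, Cplx2, Syt7, Erc2 and Sh3gl2. By edgeR's likelihood ratio test and by DESeq2 with the same surrogate variables 1 release gene passed, in both cases Bsn, while 127 and 96 of all 17252 genes passed. Without surrogate variables, with all 8 libraries, no release gene had an unadjusted p below 0.05 (1.81% of all genes), and with each library left out in turn the count was 0 in 5 fits of 8. It was 7 without hp708 2, all higher in hp708 (3.21% of all genes), 5 without hp708 1, of which Syt4, Unc13c, Rims3 and Rab3b were lower and Syt7 higher (3.42%), and 1 without hpCTL 3 (1.92%). With 3 surrogate variables and without hp708 1, Bsn, Cplx2, Erc2 and Sh3gl2 no longer had an unadjusted p below 0.05 (log2 fold changes 0.08, 0.11, 0.12 and 0.05), and of the 17 release genes that did 12 were lower and 5 higher, Unc13a and Syt7 among them (12.2% of all genes, 5.44% higher). With each library left out in turn, or hpCTL 1 and hp708 2 left out together, the log2 fold change of Bsn ran from 0.08 to 0.37, of Unc13a from 0.13 to 0.33, of Cplx2 from 0.09 to 0.25, of Syt7 from 0.11 to 0.28, of Erc2 from 0.04 to 0.22 and of Sh3gl2 from 0.05 to 0.15. Log2 fold changes (hp708 minus hpCTL) ran from -0.33 to 0.30, with 29 genes above 0, 19 below and a median of 0.026, against -0.009 over all tested genes, of which 53.2% were below 0. The split was 22 above 0 and 26 below without surrogate variables (median -0.007), and 19 above and 29 below without hp708 1 (median -0.036), so it turned with these choices. Each library is 1 mouse. Where surrogate variables were fitted, the p-values are set against the spread left after them and not against the full spread between mice.

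**Figure D4:**
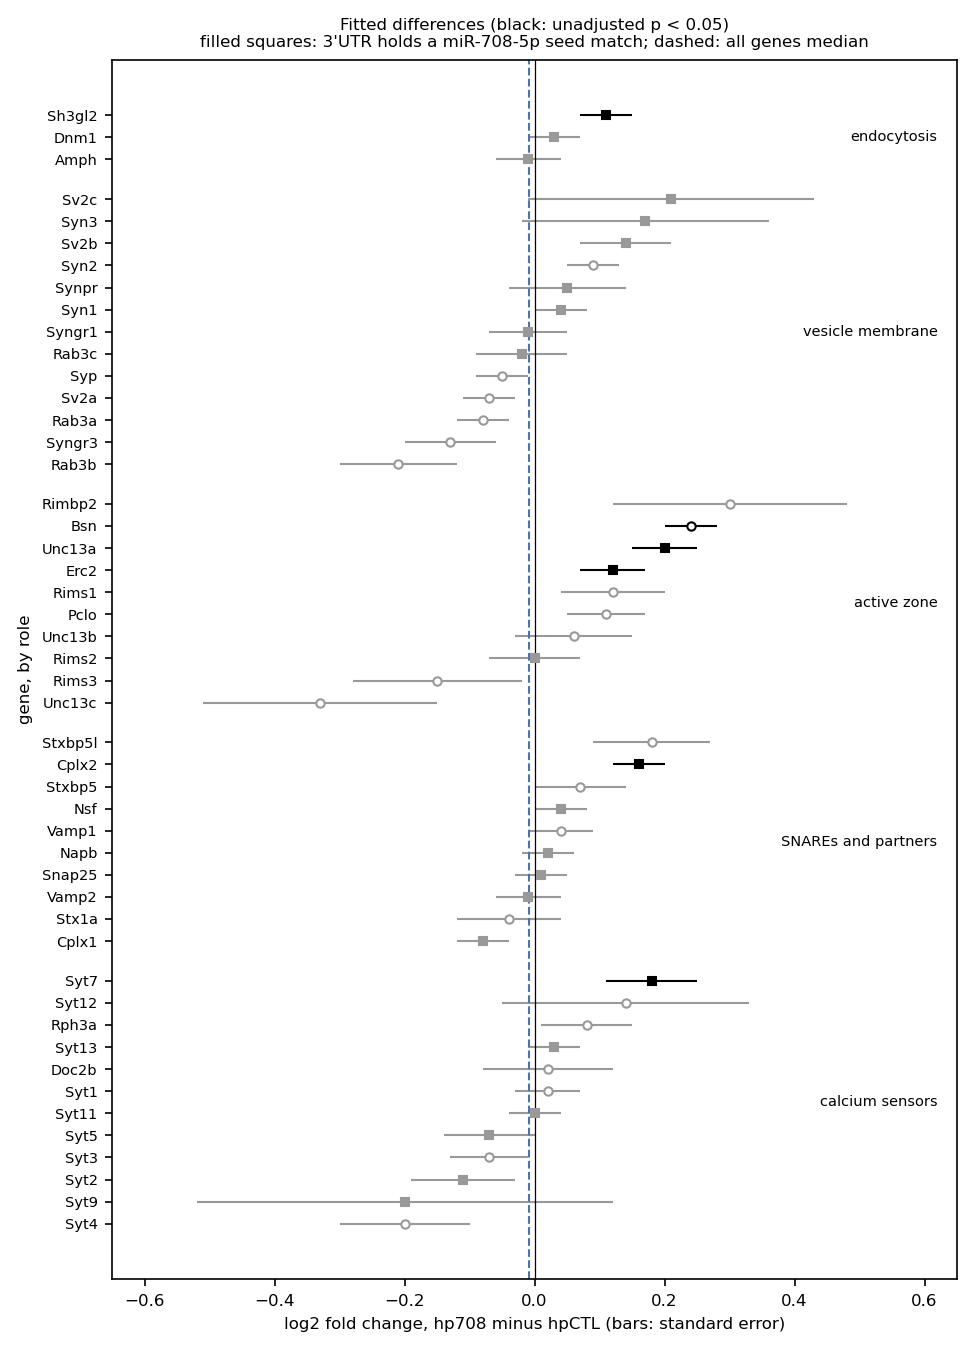
Fitted log2 fold changes (hp708 minus hpCTL) of the 48 release genes are shown by role with their standard errors, in black where the unadjusted p was below 0.05 and as filled squares where the 3'UTR holds a seed match. The black points are Syt7, Cplx2, Erc2, Unc13a, Bsn and Sh3gl2, all to the right of 0, and squares and circles lie on both sides.

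The group of active zone and priming genes held 3 of the 6, which is 3 of its 10 genes beside 2.82% of all tested genes higher at that p. With 3 surrogate variables and without hp708 1, Bsn and Erc2 were no longer among those with such a p, and Unc13c, Rims2, Rims3 and Rimbp2 were, beside Unc13a. There Unc13c (-1.22) and Rims3 (-0.66) were lower, Unc13a (0.15) and Rimbp2 (0.49) higher, and 12.2% of all genes had such a p. With all mice, the 10 genes of the group had a median log2 fold change of 0.114, 7 above 0 and 3 below, and none passed the FDR. Without hp708 1 Pclo and Rims1 lay below 0 as well. Bsn (ENSMUSG00000032589, GRCm39 chromosome 9 from 107973221 to 108067629, minus strand) encodes Bassoon, the giant scaffold that orders vesicles at the release site. The hpCTL replicates 1 to 4 stood at 340, 495, 510 and 484 CPM and the hp708 replicates at 555, 385, 621 and 591. The low values are hpCTL 1 and hp708 2, the other hp708 mice lie above all hpCTL mice, and the groups overlap. Its log2 fold change was 0.24 (SE 0.04, edgeR FDR 0.297), while the plain means were 457 ± 78.9 and 538 ± 106 CPM (SD, n = 4 each, exact permutation p = 0.371, two-sided). With hpCTL 1 left out its log2 fold change was 0.16, and with hp708 1 left out it was 0.08 (edgeR FDR 0.695). Its 3'UTR held no seed match.

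Unc13a (ENSMUSG00000034799, chromosome 8 from 72076694 to 72124685, minus strand) encodes Munc13-1, the main priming factor of hippocampal excitatory synapses. It was measured at 242, 352, 338 and 329 CPM in hpCTL and at 352, 293, 405 and 433 in hp708. As for Bsn, hpCTL 1 and hp708 2 are the lowest of their groups, hp708 3 and 4 lie above every hpCTL mouse and the groups overlap. The log2 fold change was 0.20 (SE 0.05, edgeR FDR 0.44). Both Unc13a and Bsn have exons that overlap genes on the opposite strand, 16.7% of the exon bases of Unc13a with Colgalt1 and 6.79% of those of Bsn with a lncRNA, and the strand setting of the counting is not given in the sources used here. Erc2, whose product ELKS2 is another scaffold, was at 206, 191, 214 and 185 CPM in hpCTL and 168 to 241 in hp708, with replicates 3 and 4 both at 241 and a log2 fold change of 0.12 (SE 0.05, edgeR FDR 0.619).

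Other scaffolds of the active zone missed the unadjusted threshold. Pclo, which encodes Piccolo, had a log2 fold change of 0.11 (SE 0.06), and Rims1, which encodes the RIM1 protein that recruits Munc13 and calcium channels, 0.12 (SE 0.08), but without hp708 1 they were at -0.07 and -0.02. Rimbp2, which links RIM to calcium channels, had the highest value of all 48 genes at 0.30 (SE 0.18, edgeR FDR 0.741), but it came from 1 mouse. The hpCTL mice stood at 167, 177, 193 and 165 CPM and the hp708 mice at 185, 160, 209 and 388. With hp708 4 left out the log2 fold change was 0.09. Rims2 was at 0.00 (SE 0.07) and Unc13b, which encodes Munc13-2, at 0.06 (SE 0.09).

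Unc13c and Rims3 had the lowest values of the active zone genes. Unc13c encodes Munc13-3 and was at 8.92, 17.1, 10 and 15.3 CPM in hpCTL and 19.9, 6.09, 8.4 and 5.04 in hp708, with a log2 fold change of -0.33 (SE 0.18, edgeR FDR 0.723). Rims3, a short RIM family member, was at 43.9, 69.4, 47.9 and 64.1 CPM in hpCTL and 67.7, 36, 52.6 and 34 in hp708 (log2 fold change -0.15, SE 0.13). In both genes hp708 1 lies with the high hpCTL mice 2 and 4, and the groups overlap. Without hp708 1 the log2 fold changes were -1.22 for Unc13c (edgeR FDR 0.0572) and -0.66 for Rims3 (FDR 0.0906), while without hp708 4 they were -0.14 and -0.06. The subiculum markers, taken as their mean log2 CPM, had their lowest values in hp708 2, 3 and 4. The hpCTL mice stood at 3.81, 4.31, 4.25 and 4.26 and the hp708 mice at 4.25, 3.31, 3.36 and 2.77, a difference of -0.73 (exact permutation p = 0.0857, two-sided). All 6 markers had fitted log2 fold changes below 0, but not each followed that order of the mice. Gpr101 was highest of all mice in hp708 3, at 14 CPM, and Fn1 lowest in hpCTL 1, at 66.4 CPM. The match to Unc13c and Rims3 was partial, since hpCTL 3 was high for the markers and low for both genes in hpCTL, and hp708 3 was low for the markers and above hpCTL 1 and 3 for Rims3. Their summed level was 125 to 220 CPM in hpCTL and 108 to 199 in hp708, none being at 0. The part of dissected subiculum in the values of Unc13c and Rims3 was not tested.

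Active zone genes also varied most between mice of the same group. The median SD of log2 CPM within groups was 0.237 for the 10 genes, at a median percentile of 91.3 among genes of similar level, against 0.171 and 74.5 for the 48 release genes. For the SNAREs and their partners it was 0.13, at percentile 49.8. Long release genes (at or above 4475 bases) had a median log2 fold change of 0.092 and short ones -0.004, 24 in each set. With 3 surrogate variables these medians were 0.011 and -0.058 without hp708 1 and 0.031 and 0.025 without hp708 4. The same split over all tested genes gave 0.029 for 5146 long and -0.030 for 12016 short genes. The length dependence of hpCTL 1 and hp708 2 thus stands beside the values of the active zone genes, and its part in them was not tested. A fit with both libraries left out and no surrogate variables was chosen after seeing the data. In it the medians of long and short release genes were 0.111 and 0.038. There 7 release genes, Syn2, Unc13a, Bsn, Sv2b, Cplx2, Erc2 and Sh3gl2, had an unadjusted p below 0.05, all higher in hp708, against 4.34% of all genes (2.3% higher). The lowest FDR of a release gene in that fit was 0.941.

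Among the SNAREs and their partners, the fusion machinery itself lay close to 0. Snap25 (ENSMUSG00000027273) was at 2440, 1970, 1990 and 1970 CPM in hpCTL and 1990, 1990, 2200 and 1980 in hp708. The high value is hpCTL 1, and the other 7 mice lie within a narrow band apart from hp708 3. Its log2 fold change was 0.01 (SE 0.04), but it was below 0 when surrogate variables were left out (-0.04), under the replicate block (-0.03) and when low counts were not filtered (-0.01). Vamp2 had -0.01 (SE 0.05), with 988 to 1180 CPM in hpCTL and 944 to 1090 in hp708. Stx1a, syntaxin 1A, had -0.04 (SE 0.08) and Nsf 0.04 (SE 0.04). Napb, which brings Nsf to the SNARE complex, was at 0.02 (SE 0.04) and Vamp1 at 0.04 (SE 0.05). Stxbp5 and Stxbp5l, which encode the tomosyns that hold syntaxin in inactive complexes, were at 0.07 (SE 0.07) and 0.18 (SE 0.09). Stxbp5l was at 11.3 CPM in hpCTL 1 against 25.2 to 29 in the other hpCTL mice, and at 13.7 in hp708 2 against 27.9 to 32.4 in the other hp708 mice.

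The complexins, small proteins that clamp and then assist the SNARE complex, differed in sign. Cplx2 (ENSMUSG00000025867) was at 1160, 1280, 1260 and 1220 CPM in hpCTL and 1330, 1090, 1550 and 1500 in hp708. hp708 2 is the lowest of all 8 mice and the other hp708 mice are the highest, so the groups overlap through 1 mouse. The log2 fold change was 0.16 (SE 0.04, edgeR FDR 0.5). Cplx1 (ENSMUSG00000033615) was at 535, 486, 489 and 509 CPM in hpCTL and 484, 467, 468 and 460 in hp708. Every hp708 mouse lies below every hpCTL mouse (484 against 486 CPM at the nearest), and Cplx1 was the release gene whose groups did not overlap, against 1.51% of all tested genes (0.812% lower and 0.701% higher in hp708). Its log2 fold change was -0.08 (SE 0.04, edgeR FDR 0.712), and its exact permutation p of 0.0286 (two-sided) is the smallest that 4 mice against 4 can give. Groups of 4 that do not overlap always give that p, so it repeats the lack of overlap and is not separate support. The difference between the complexins was not tested. Cplx1 varied little, at percentile 3.19 of within-group SD among genes of its level.

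Of the 12 genes for calcium sensors and their relatives, 7 lay above 0 and 5 below, with a median of 0.009, and 1 had an unadjusted p below 0.05. Syt1, the sensor of fast synchronous release in forebrain neurons, was at 1210, 1370, 1320 and 1350 CPM in hpCTL and 1370, 1160, 1440 and 1260 in hp708. Its groups overlap over nearly their whole range, and the log2 fold change was 0.02 (SE 0.05). It turned to -0.01 without surrogate variables and, with 3 of them, to -0.09 without hp708 1. Syt7, a slower sensor with high calcium affinity that serves asynchronous release and facilitation, was at 299, 346, 330 and 312 CPM in hpCTL and 320, 329, 439 and 403 in hp708. hp708 3 and 4 lie above all hpCTL mice and the other hp708 mice lie among them. The log2 fold change was 0.18 (SE 0.07, edgeR FDR 0.594).

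Syt4, which binds calcium poorly through its first C2 domain, was at 179, 178, 162 and 162 CPM in hpCTL and 166, 150, 152 and 107 in hp708. hp708 1 lies among the hpCTL mice and hp708 4 well below all others. The log2 fold change was -0.20 (SE 0.10, edgeR FDR 0.709), -0.38 without hp708 1 (FDR 0.0594) and -0.10 without hp708 4, and 19.1% of its exon bases overlap an antisense lncRNA. Syt9, another fast sensor, was at 5.68, 8.35, 6.89 and 6.16 CPM in hpCTL and 8.41, 6, 6.39 and 2.15 in hp708. The spread was wide at this low level, and the log2 fold change of -0.20 had an SE of 0.32, with -0.88 without hp708 1 and 0.04 without hp708 4. Syt2, a fast sensor found in inhibitory and hindbrain neurons, was at -0.11 (SE 0.08), and Syt11 at 0.00 (SE 0.04). Syt3, Syt5, Syt12 and Syt13 had log2 fold changes of -0.07, -0.07, 0.14 and 0.03. Doc2b, a sensor linked to spontaneous release, was at 0.02 (SE 0.10) and Rph3a, a partner of Rab3, at 0.08 (SE 0.07).

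The 13 vesicle membrane and tethering genes had the median nearest to 0 from below, -0.005, with 6 above 0, 7 below and none with an unadjusted p below 0.05. Syn1 encodes synapsin I, which ties reserve vesicles together. It was at 617, 574, 554 and 543 CPM in hpCTL and 593, 505, 600 and 581 in hp708, with overlapping groups and a log2 fold change of 0.04 (SE 0.04). That value turned to -0.01 without surrogate variables and, with 3 of them, also to -0.01 without hp708 1. Syn2 was at 0.09 (SE 0.04, edgeR FDR 0.678) and Syn3 at 0.17 (SE 0.19). Syp had -0.05 (SE 0.04), with hpCTL 1 at 1520 CPM and the other mice between 1140 and 1300. Sv2a, the binding site of the antiepileptic drug levetiracetam, had -0.07 (SE 0.04), and its paralogs Sv2b and Sv2c 0.14 (SE 0.07) and 0.21 (SE 0.22). Sv2c was at 29, 26.7, 53.9 and 33.3 CPM in hpCTL and 39.5, 31.3, 37.6 and 66.2 in hp708, so that 1 mouse of each group stood well above the rest. Without surrogate variables its log2 fold change was 0.02 without hp708 4 and 0.56 without hpCTL 3. The tetraspan proteins Syngr1, Syngr3 and Synpr were at -0.01, -0.13 and 0.05 (SE 0.06, 0.07 and 0.09).

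The Rab3 GTPases, which bind vesicles and RIM, lay below 0 in the reported fit. Rab3b, the least abundant of the 3, was at 40.7, 45.1, 37.2 and 37.3 CPM in hpCTL and 40.8, 31.8, 33.2 and 27.8 in hp708. hp708 1 lies among the hpCTL mice and the other hp708 mice below them all. The log2 fold change was -0.21 (SE 0.09, edgeR FDR 0.672), and without hp708 1 it was -0.42 (FDR 0.0558), the lowest FDR of any release gene in that fit. Rab3a, the main form of the brain, was at 591, 466, 439 and 443 CPM in hpCTL and 458, 439, 459 and 395 in hp708, with a log2 fold change of -0.08 (SE 0.04). The high value is again hpCTL 1, and the other mice overlap. Rab3a has the second shortest transcript of the 48 genes, 1443 bases, and shares 18% of its exon bases with Mpv17l2 on the opposite strand. Rab3c was at -0.02 (SE 0.07).

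Of the 3 endocytic genes, Sh3gl2, which encodes the membrane-bending protein endophilin A1, had an unadjusted p below 0.05. It was at 314, 312, 303 and 292 CPM in hpCTL and 338, 282, 339 and 330 in hp708, with hp708 2 below all other mice and the remaining hp708 mice above all hpCTL mice. The log2 fold change was 0.11 (SE 0.04, edgeR FDR 0.632). Dnm1, the neuronal dynamin that severs the necks of budding vesicles, was at 1250 to 1400 CPM in hpCTL and 1150 to 1370 in hp708, with a log2 fold change of 0.03 (SE 0.04) that turned to -0.02 without surrogate variables. Amph, amphiphysin, which recruits dynamin and holds the single 8mer, was at 317, 250, 269 and 248 CPM in hpCTL and 257, 241, 275 and 271 in hp708 (log2 fold change -0.01, SE 0.05).

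**Figure D5:**
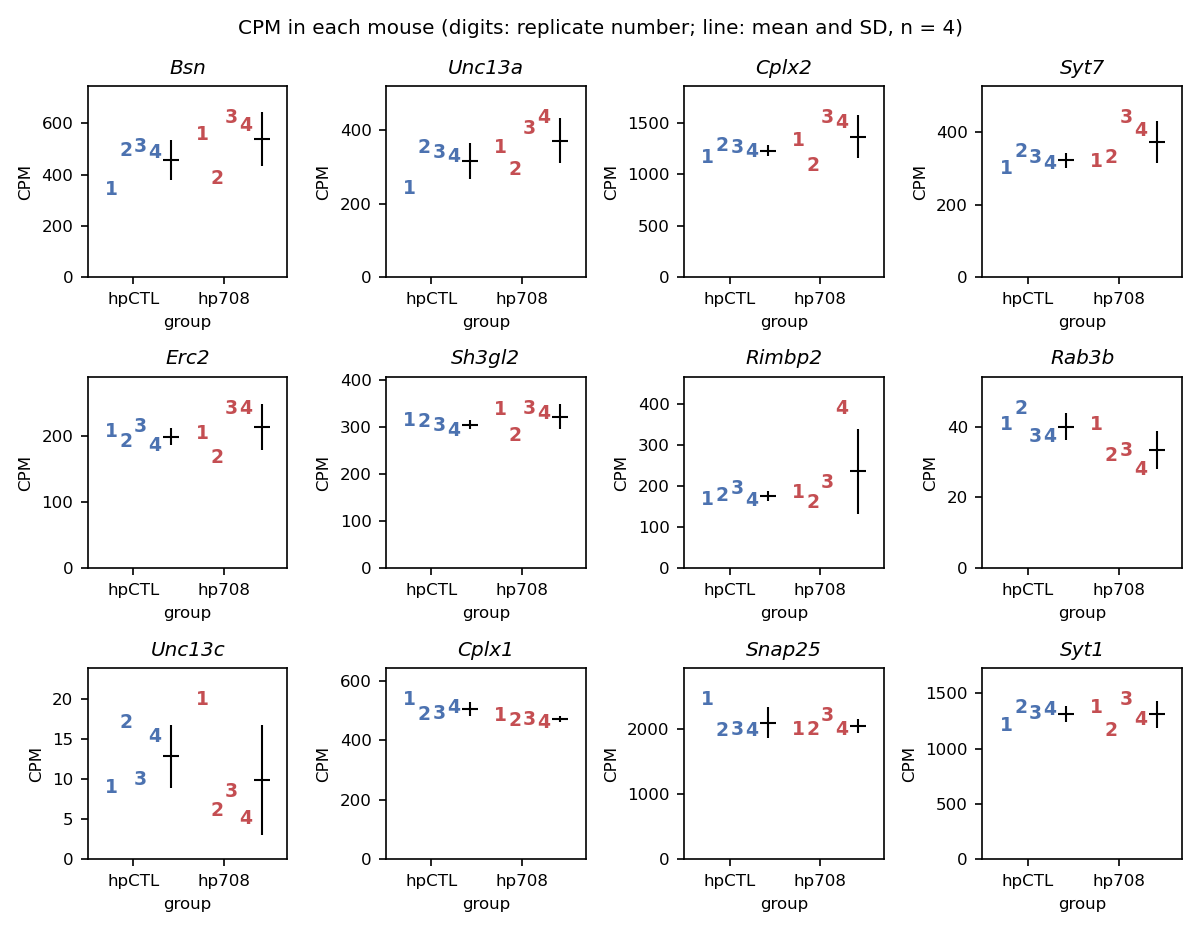
CPM of 12 release genes is shown for each mouse on axes from 0, with digits for the replicate number (blue hpCTL, red hp708) and the mean with its SD beside each group (n = 4). In Bsn, Unc13a and Cplx2 the hp708 mice 1, 3 and 4 are higher than the mouse marked 2, Rimbp2 is set by hp708 4, Unc13c by hp708 1 at 19.9 and the low hp708 mice, and for Cplx1 all hp708 digits lie below the hpCTL ones.

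The release genes with a seed match were not lower in hp708 than those without. Their median log2 fold change was 0.028 (25 genes, 9 below 0), against 0.02 for the 23 without a match (10 below 0). Over all tested genes with a 3'UTR the medians were 0.001 for 3927 with a match and -0.015 for 10881 without. Of the 6 release genes with an unadjusted p below 0.05, all higher in hp708, 5 held a match, and Bsn did not. Over all genes 296 of 3927 with a match and 887 of 10881 without had such a p, but these counts take both directions. Of the genes with a pair of matches, Unc13a was at 0.20, Syn3 at 0.17, Syngr1 and Amph both at -0.01 and Syt2 at -0.11. With 3 surrogate variables and without hp708 1, Bsn, Cplx2, Erc2 and Sh3gl2 no longer had an unadjusted p below 0.05. Of the 17 release genes that then did, 12 were lower in hp708 and 5 higher, beside 12.2% of all genes. Polyadenylated transcript levels were measured, and protein levels were not.

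A further 50 genes of the same machinery were listed as a wider set, among them syntaxin 1B, CAPS proteins, liprins, vesicular transporters, clathrin and its adaptors. Of these, 49 passed the filter on low counts, the exception being Syt8. None passed an FDR of 0.05, 5 had an unadjusted p below 0.05 (1 higher and 4 lower in hp708, beside 7.7% of all tested genes, 2.82% higher and 4.87% lower), and the median log2 fold change was 0.006. Slc17a6, the vesicular glutamate transporter VGLUT2, was at 11.4, 18, 15.1 and 19.2 CPM in hpCTL and 15.8, 11.6, 6.95 and 4.83 in hp708 (log2 fold change -0.75, SE 0.17, edgeR FDR 0.386). Cplx3, another complexin, was at 4.11, 8.35, 3.77 and 6.31 CPM in hpCTL and 7.1, 1.17, 1.83 and 1.65 in hp708 (log2 fold change -0.95, SE 0.27, edgeR FDR 0.511). In both, hp708 1 lies with the hpCTL mice, as it does in Unc13c, Rims3 and Rab3b. Slc17a6 is also on the subiculum marker list above.

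Cadps2, a CAPS protein that primes dense-core vesicles, was at 100, 95.4, 100 and 95.9 CPM in hpCTL and 92, 69.8, 87.7 and 66.9 in hp708. Its groups did not overlap, which held for 1 of the 49 tested genes of the wider list and for 1.51% of all tested genes (0.812% lower in hp708). The log2 fold change was -0.24 (SE 0.07, edgeR FDR 0.511). Ppfia1, liprin-α1, a scaffold protein, was at 35.6, 44.4, 42.7 and 42.5 CPM in hpCTL and 48.6, 40.1, 47.6 and 44.9 in hp708 (log2 fold change 0.15, SE 0.05, edgeR FDR 0.594). hpCTL 1 was its lowest mouse.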

How the data were processed

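Whole hippocampus of 8 mice (4 hpCTL, 4 hp708) had been profiled by polyA-RNA sequencing. The authors deposited raw gene counts in 1 table, which per the labels were made with STAR 2.7.8a on GRCm39 and featureCounts 1.6.4, and columns were matched to samples by animal number. The strand and multi-mapping settings are not given in the sources used here. From these counts, genes were filtered with filterByExpr, scaled by TMM and tested with edgeR 4.0.16 (R 4.3.3; quasi-likelihood, 3 surrogate variables from sva 3.50.0 on the filtered counts, Benjamini-Hochberg adjustment over all tested genes). The standard error was the log2 fold change over the square root of the test statistic. Log2 CPM used a prior count of 2. For single values an exact permutation test over the 8 libraries was used. DESeq2 1.42.0 was an alternative, as were other scaling, no surrogate variables, the likelihood ratio test, no filter, the replicate block and each library left out. Scripts were tested on simulated data.

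Gene names, lengths and 3'UTRs came from a later GENCODE release of the same build than the one the authors used. Total counts were 22606824 to 28462428 per library. Named with values were release genes past the FDR of 0.05, those with an unadjusted p below 0.05, the 5 highest and 5 lowest log2 fold changes, those whose groups did not overlap, and core members fixed by name. The remaining release genes are given by their fold changes. From the wider list, genes past the FDR and the 4 with the lowest p were named. The members and lists were chosen with earlier results of these data known. Replicate numbers did not pair the samples, since deviations from the group means correlated between -0.04 and 0.02 for the same number. Marker lists were written for 13 cell types, regions and states. Beside those in the report, their differences in mean log2 CPM (hp708 minus hpCTL) were -0.07 for neurons, 0.05 for dentate granule cells, -0.03 for CA1, 0.19 for CA3, 0.02 for thalamus, -0.13 for interneurons, 0.62 for choroid plexus, 0.08 for astrocytes, -0.10 for microglia, -0.03 for endothelium and -0.28 for the interferon response, with exact permutation p-values from 0.114 to 0.971. By the edgeR fit, all 6 interferon response genes (lower), 3 of 5 microglia markers (lower), 3 of 6 CA3 markers (higher) 3 of 6 subiculum, 2 of 8 neuron (both lower) and 2 of 9 interneuron markers had an unadjusted p below 0.05, none past the FDR, and their part in the values of the release genes was not tested. The result of 1 list as a whole is not reported here.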

Additional observations from a re-analysis of the deposited data

Results flagged for a closer look

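Within-group outliers were sought for each release gene in each group of 4 mice, a library being singled out where its gap to the nearest other exceeded Dixon's 95% critical value. Of 96 groups examined, 8 held such a library, and chance gives about 4.8. hpCTL 1 was the outlier in 5 of the 8, above the other hpCTL mice for Snap25 at 2440 CPM, Syp at 1520, Syt11 at 811 and Syt12 at 34.3, and below them for Bsn at 340. The transcripts of Snap25 (2287 bases) and Syp (2591) are short and that of Bsn (15984) is long, while those of Syt11 (4569) and Syt12 (4538) are just above the median of 4475 bases. The rank correlation (Spearman) between length and deviation over the 48 release genes was -0.81 in this library, and the part of length in these values was not tested. In hp708, replicate 4 stood above the others for Syt12 at 48 CPM, replicate 3 for Snap25 at 2200 and replicate 2 below the others for Sh3gl2 at 282.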

How the results depend on the processing

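The count of release genes past an FDR of 0.05, 0 in the reported fit, was 1 (Bsn) with the likelihood ratio test (FDR 0.0375) and with DESeq2 (FDR 0.00375), where 127 and 96 of all 17252 genes passed, and 0 under DESeq2's size factors, no surrogate variables, no filter, the replicate block and all 17 fits without libraries. The count with an unadjusted p below 0.05, 6 as reported, was 0 without surrogate variables, 11 without the filter (8 higher, 3 lower, beside 5.87% of all genes, 2.21% higher), and 0 to 20 over the fits without libraries. With 3 surrogate variables the latter were 13 (6 higher), 4 (4 higher), 1 (1 higher) and 10 (5 higher) without hpCTL replicates 1 to 4, beside 9.67%, 7.04%, 2.98% and 6.09% of all tested genes. Without hp708 replicates 1 to 4 they were 17 (5 higher), 20 (13 higher), 13 (9 higher) and 7 (7 higher), beside 12.2%, 12%, 8.02% and 8.46%. With hpCTL 1 and hp708 2 left out together, a choice made after seeing the data, it was 7, beside 4.34%. The median log2 fold change of the 48 genes lay between -0.055 and 0.072 over all alternatives, so its direction depended on the fit. Each shift was below 0.0812, the SD between mice of a group in the median deviation of the release genes. That SD is not the error of the median log2 fold change. The replicate block, in a design whose numbers pair no mice, gave 2 release genes with an unadjusted p below 0.05, Syt4 and Rab3b, both lower (1.58% of all genes), and 0 past the FDR. Of 156 values of 26 named genes under 6 alternatives, 145 kept their direction and side of the threshold and 9 reversed, all in genes within 0.05 of 0. Syt1, Syn1 and Dnm1 were at -0.01, -0.01 and -0.02 both without surrogate variables and with the replicate block, and Snap25 was at -0.04 and -0.03 there and at -0.01 without the filter. The cause was not tested. Without hp708 replicate 3 Syt1, and without hpCTL replicate 3 Snap25, was at -0.06 when no surrogate variables were used. Over the fits without libraries, 397 of 442 values kept their direction. The genes whose sign turned ranged from -0.09 to 0.05 (Syt1), -0.88 to 0.04 (Syt9), -0.03 to 0.09 (Syn1), -0.07 to 0.06 (Snap25), -0.10 to 0.02 (Vamp2), -0.19 to 0.03 (Stx1a), -0.02 to 0.19 (Rims1), -0.66 to 0.01 (Rims3), -0.07 to 0.19 (Pclo), -0.14 to 0.00 (Syp), -0.05 to 0.10 (Nsf) and -0.04 to 0.07 (Dnm1). Syn3, Syt9 and Unc13c, the release genes with the lowest level per length, had within-group SDs at percentiles 88.8, 93.3 and 95 among genes of similar level.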
